A study of Mus musculus with 8 samples.

Results

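The genes described here are 7 long noncoding RNAs of the nucleus: Malat1, Neat1, Meg3, Rian, Mirg, Miat and Snhg11. They were chosen by symbol, and each symbol matched 1 of the 54232 genes counted, so all 7 were measured. They were followed in single-nucleus RNA sequencing of mouse forebrain, in which each barcode holds the RNA of 1 nucleus and each captured molecule is counted once by its unique molecular identifier (UMI). Tissue came from male Swiss Webster mice aged 10 weeks, as frozen perilesional forebrain cut to a cube of about 2 mm. The 4 groups were control, BCAS, TBI, and BCAS with TBI, each with 2 libraries that the labels call biological replicates. TBI is traumatic brain injury. The labels give BCAS only as an abbreviation, and the study's title ties it to low blood flow of the brain. The number of animals in a library and the time after surgery are not given in the sources used here, and p-values measure the spread between these libraries.

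Nuclear long noncoding RNAs are transcribed like messenger RNAs but stay in the nucleus and are not translated. Malat1 gathers in nuclear speckles, bodies rich in splicing factors, while Neat1 is the RNA scaffold on which paraspeckles are built. Meg3, Rian and Mirg are expressed from the maternal chromosome of the imprinted Dlk1-Dio3 domain, where Rian hosts small nucleolar RNAs and Mirg hosts microRNAs. Miat, also called Gomafu, is a nuclear RNA of neurons, and Snhg11 is a host gene of small nucleolar RNAs. Because these RNAs are held in the nucleus, they can be followed in isolated nuclei.

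On the mouse genome build GRCm38 with GENCODE release M21, Malat1 (ENSMUSG00000092341) lies at chr19:5795690-5802672 on the minus strand. Neat1 (ENSMUSG00000092274) lies on the same strand at chr19:5824708-5845478, with 22035 bases between both genes. Meg3 (ENSMUSG00000021268, chr12:109541001-109571726), Rian (ENSMUSG00000097451, chr12:109603940-109661716) and Mirg (ENSMUSG00000097391, chr12:109729764-109749460) follow each other on the plus strand, with gaps of 32213 and 68047 bases. Miat (ENSMUSG00000097767) lies at chr5:112213228-112229395 on the minus strand. Snhg11 (ENSMUSG00000044349) lies at chr2:158375638-158386145 on the plus strand, and this annotation lists it as protein coding. The Rian span holds 13 small nucleolar RNA genes and 4 microRNA genes, and the Mirg span 14 microRNA genes. Genes on the same strand inside Rian collected 3094 UMIs against 86724 for Rian itself. Antisense genes overlap Malat1 (Gm37376, 20438 UMIs against 14036586), Meg3 (Gm26906, 6147 against 2240612) and Miat (Gm26953, 1460 against 76191). How the counting treated strand is not given in the sources used here, so reads of these partners cannot be told apart with certainty.

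The promoter windows of Malat1 and Meg3 are shown because these genes differed in opposite directions between libraries, as described further on. Each window runs from 250 bases before to 50 bases after the RefSeq start (GRCm38.p6), 5′ to 3′ on the gene's strand. Windows were found for 6 of the 7 genes. Capitals mark matches, on either strand, to the cyclic AMP response element TGACGTCA or its core TGACG, to the CCAAT box, or to TATAAA, with overlapping matches merged.
Malat1: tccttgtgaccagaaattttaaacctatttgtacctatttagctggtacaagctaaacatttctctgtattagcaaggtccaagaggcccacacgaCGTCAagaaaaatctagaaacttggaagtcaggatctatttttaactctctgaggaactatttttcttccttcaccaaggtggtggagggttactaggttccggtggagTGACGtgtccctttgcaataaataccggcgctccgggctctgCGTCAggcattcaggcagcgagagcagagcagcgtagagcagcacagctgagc
Meg3: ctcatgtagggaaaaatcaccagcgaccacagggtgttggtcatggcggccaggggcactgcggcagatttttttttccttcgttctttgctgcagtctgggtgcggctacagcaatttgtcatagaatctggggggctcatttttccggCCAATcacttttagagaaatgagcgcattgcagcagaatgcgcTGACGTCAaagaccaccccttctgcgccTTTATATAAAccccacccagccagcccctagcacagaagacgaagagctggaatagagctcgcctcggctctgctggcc
The Malat1 window, chr19:5802623-5802922, held 3 matches to TGACG, a sequence found in 20.8% of the 32851 promoter windows searched. The Meg3 window, chr12:109540746-109541045, held 1 match to TGACGTCA, present in 1.79% of windows, which contains its 2 TGACG matches, 1 on each strand. It also held 1 CCAAT and 2 TATAAA matches, found in 37.4% and 13.6% of windows. A second Meg3 window, chr12:109545148-109545447, not printed here, held 1 CpG and no match to any of these sequences. The Miat window, chr5:112228899-112229198, held 1 match to the GC box GGGCGG (35.7% of windows) and 25 CpG dinucleotides, against a median of 7 over all windows. The printed windows of Malat1 and Meg3 held 10 and 13 CpG, that of Snhg11 21, and that of Rian 0. These matches describe letters only.

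The 8 libraries held 53390 barcodes, of which 48468 were kept (500 UMIs or more, 300 genes or more, no more than 5% of UMIs mitochondrial). Total UMIs split them into 4 lower-depth libraries (control 1, BCAS 1, TBI 1 and BCAS+TBI 2, 28118725 to 33363564 UMIs) and 4 higher-depth libraries (control 2, BCAS 2, TBI 2 and BCAS+TBI 1, 42651388 to 56135192). The median UMIs per kept nucleus were 3522.5 to 4202 in the lower-depth set and 5658 to 6819.5 in the higher-depth set. Mitochondrial shares were 0.807% to 1.38% and 0.400% to 0.593%. Each set holds 1 library of each group, and the split is a property of the libraries, not a labelled batch. Nuclei were put in cell classes by marker genes that include none of the 7 RNAs, which placed 28973 nuclei (59.8%) in 12 classes. Of the rest, 3650 (7.53%) carried markers of more than 1 class and 15845 (32.7%) passed no gate. Tests covered the 11 classes that reached 20 nuclei in each library. Each had its own markers among its 10 leading genes, which is no independent check, as the gate chose nuclei by these markers. Class names below are short for marker-defined nuclei, so "excitatory neurons" means excitatory neuron-like nuclei. Library TBI 2 held the smallest shares of oligodendrocytes (2.57% of nuclei, others 4.55% to 7.17%) and astrocytes (3.62%, others 6.75% to 10.8%).

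Across cell classes, Malat1 was abundant everywhere, and Neat1 was low in neurons and oligodendrocyte precursors and higher in the other classes tested. The other 5 had their highest means in neurons. Levels are in CPM (UMIs of a gene per 1000000 UMIs of the same class and library), given as mean ± SD over 8 libraries. Tests between neighbours in the order of class means were exact two-sided sign-flip permutation tests paired within libraries, for which 8 libraries allow no p below 0.00781. Of 70 neighbouring pairs, 18 passed, each with the same direction in 8 of 8 libraries and an adjusted p of 0.0304.

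**Figure D1:**
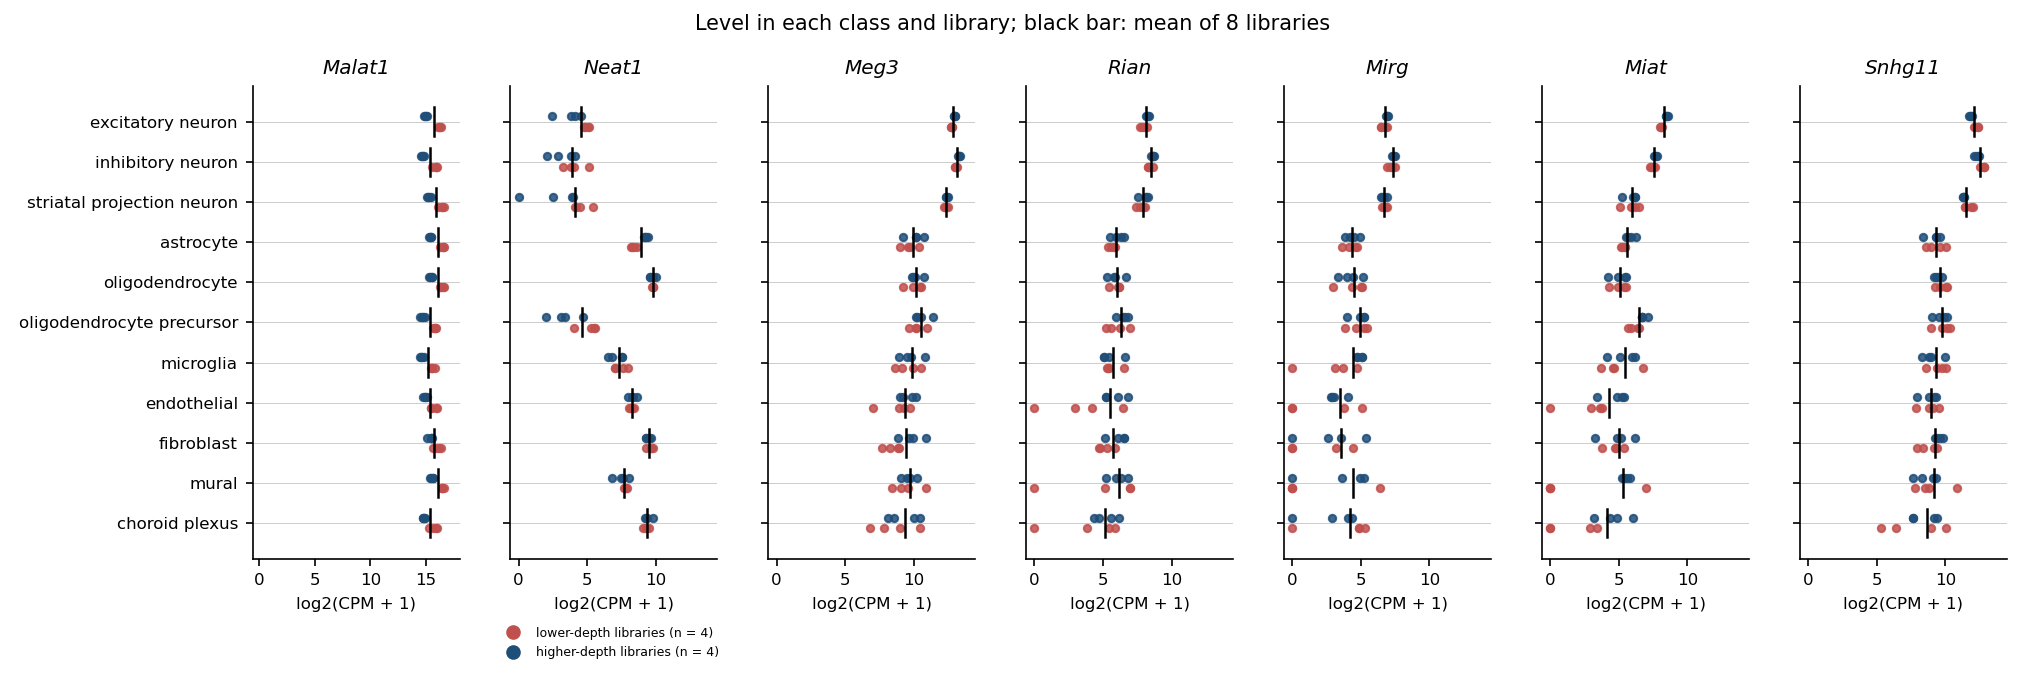
Level of each RNA by cell class, as log2(CPM + 1) on the horizontal axis, with 1 point per library (red, lower-depth; blue, higher-depth) and a black bar at the mean of 8 libraries. Malat1 is high in all 11 classes, Neat1 is lowest in neurons and oligodendrocyte precursors, and Meg3, Rian, Mirg, Miat and Snhg11 are highest in neurons.

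Malat1 had its highest class means in mural cells (68885 ± 23979 CPM, n = 8), astrocytes (66654 ± 26023) and oligodendrocytes (66624 ± 25451). Its lowest was in microglia (36481 ± 13056). Only 1 neighbouring step in this order passed the test: Malat1 was higher in excitatory neurons (52898 ± 23314 CPM) than in inhibitory neurons (42188 ± 17880), by 0.31 on the log2 scale. These SDs span both library sets, which differed in Malat1 as described below. Steps between neighbours do not compare classes further apart. Set against excitatory neurons, Malat1 was higher in mural cells, astrocytes and oligodendrocytes in 8 of 8 libraries (sign-flip adjusted p = 0.0088). In microglia, oligodendrocyte precursors and choroid plexus it was lower in 8 of 8 (sign-flip adjusted p = 0.0088). Fibroblasts did not differ detectably from excitatory neurons (sign-flip adjusted p = 0.298). Of the 28973 nuclei in a class, 1, an endothelial nucleus, held no Malat1 UMI.

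Neat1 was highest in oligodendrocytes (884 ± 80.9 CPM), followed by fibroblasts (736 ± 101), choroid plexus (655 ± 108) and astrocytes (474 ± 156). Endothelial cells held 304 ± 44.3 CPM, mural cells 203 ± 45.6 and microglia 159 ± 52.7. Excitatory neurons held only 21.8 ± 10.1 CPM, so the oligodendrocyte level was 40.5 times and the astrocyte level 21.7 times as high. The step from microglia down to oligodendrocyte precursors (23.5 ± 17.2 CPM) was the largest neighbouring step of any of the 7 RNAs, 3.07 on the log2 scale. Oligodendrocyte precursors and excitatory neurons did not differ detectably in Neat1 (exact permutation p = 0.578, n = 8). Among nuclei of 1000 UMIs or more, thinned to 1000, a Neat1 UMI was held by 56.7% of 1964 oligodendrocyte nuclei and 1.26% of 15526 excitatory nuclei, with 684 of 2648 and 102 of 15628 nuclei left out as shallower. Over all nuclei and unthinned, the shares were 65.8% and 6.59%, at median depths of 1377 and 6970 UMIs.

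Meg3 was highest in inhibitory neurons (9271 ± 826 CPM), then excitatory neurons (7415 ± 622) and striatal projection neurons (5330 ± 404), and each of these steps passed the test. Its domain partners Rian (364 ± 47.7, 274 ± 41.1 and 243 ± 50.8 CPM) and Mirg (157 ± 20.5, 110 ± 15.5 and 103 ± 12.9 CPM) ranked these classes in the same order. For both, the step from inhibitory to excitatory neurons passed the test, by 0.41 and 0.52 on the log2 scale, and that from excitatory to striatal neurons did not. Snhg11 ranked the neurons alike, with 5988 ± 1151 CPM in inhibitory, 4304 ± 773 in excitatory and 2947 ± 620 in striatal neurons. Miat ran the other way between the main neuron classes, with 313 ± 50.6 CPM in excitatory and 190 ± 22.3 in inhibitory neurons, a step of 0.71 on the log2 scale. Striatal neurons held 61.5 ± 18.4 CPM of Miat, and oligodendrocyte precursors 89.3 ± 26.8, a step that did not pass.

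Oligodendrocyte precursors came next after neurons for Meg3 (1469 ± 618 CPM) and Snhg11 (886 ± 283), below striatal neurons by 1.95 and 1.78 on the log2 scale. In the non-neuronal classes, the level as a share of that in excitatory neurons was 8.97% to 19.8% for Meg3, 12.6% to 29.0% for Rian, 9.11% to 26.6% for Mirg and 5.44% to 28.5% for Miat. Messenger RNAs of neuronal synapses in the same classes were at 10.5% to 28.7% (Snap25) and 10.6% to 15.4% (Syt1) of their excitatory level. The part of free neuronal RNA in these low levels of Meg3, Rian, Mirg and Miat was not tested. In nuclei of 1000 UMIs or more thinned to 1000, which leaves out 297 of 3446 astrocyte nuclei, Meg3 was seen in 99.4% of excitatory, 99.7% of inhibitory and 32.5% of astrocyte nuclei.

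Over the 11 class means, likeness was ranked among genes other than the 7 RNAs, predicted genes and mitochondrial genes. Most alike Meg3 were then Snhg14, the host transcript of the imprinted Ube3a locus (Pearson r = 0.995), Ube3a (0.993) and Slc35f4 (0.989). Among the 7 RNAs, Meg3 correlated with Snhg11 at 0.995, Mirg at 0.990, Rian at 0.987 and Miat at 0.881. With Malat1 the value was 0.029 and with Neat1 −0.838. Ube3a was also among the 3 genes most alike Rian (0.979, after Cacng2 at 0.993 and before Msra at 0.978), Mirg (0.984, after Cntnap2 at 0.990 and Snhg14 at 0.986) and Snhg11 (0.992). Miat was most like Mpped1 (0.975), Clstn2 (0.963) and Chrm2 (0.960). Neat1 was most like Ganc (0.957), Pdxdc1 (0.931) and Sorbs3 (0.922), and Malat1 was most like Grm3 (0.858), Pxdn (0.840) and Adk (0.771). Snhg14 runs antisense to Ube3a, and reads of the pair may not be separable. These are descriptions over 11 points that share libraries, among 7665 genes.

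Between the library sets, Malat1 differed in the same direction in every class tested, and most of the neuronal RNAs went the opposite way. Over all nuclei kept, Malat1 took 70761, 62329, 72899 and 78076 CPM in the lower-depth libraries (control 1, BCAS 1, TBI 1 and BCAS+TBI 2, the order used below). In the higher-depth libraries (control 2, BCAS 2, TBI 2 and BCAS+TBI 1) it took 31880, 28330, 32901 and 29312 CPM. The sets did not overlap for Malat1: means were 71016 ± 6556 and 30606 ± 2140.5 CPM (SD, n = 4 each). Over all nuclei, the share of cell types and the RNA per nucleus cannot be told apart. In edgeR's quasi-likelihood test with trimmed-mean (TMM) scaling and group in the model, Malat1 was higher in the lower-depth set by 1.01 on the log2 scale (SE 0.07, adjusted p = 9.5e-05). Scaled by total UMIs alone the difference was 1.21.

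**Figure D2:**
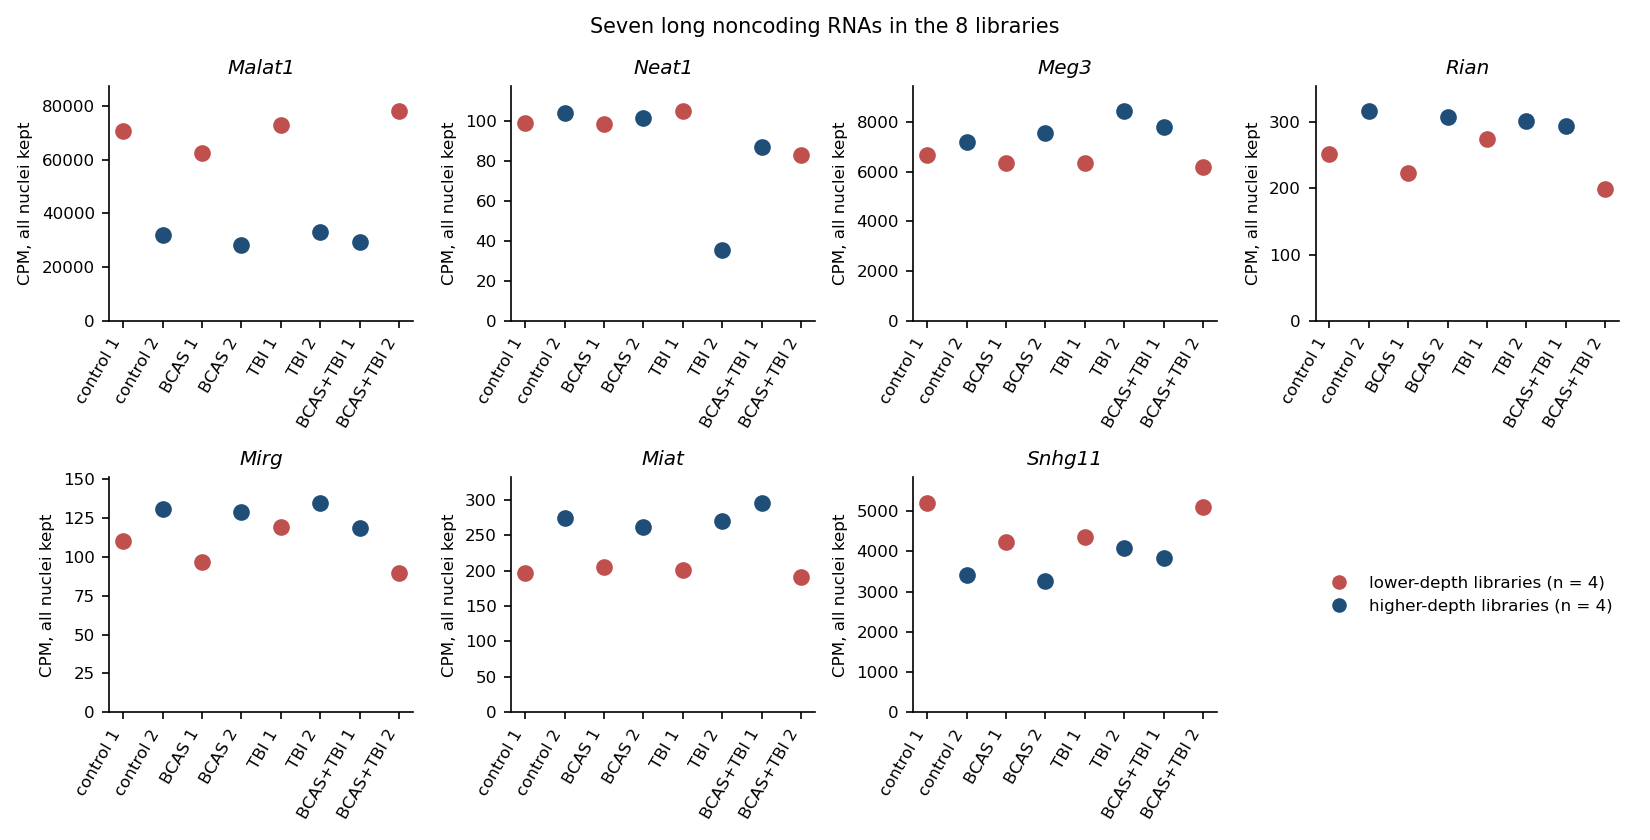
Level of each RNA over all nuclei in each of the 8 libraries, in CPM, with lower-depth libraries in red and higher-depth libraries in blue. Malat1 is higher in all 4 red libraries, while Meg3, Rian and Miat are higher in all 4 blue ones.

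Meg3 over all nuclei was 6670.1, 6356, 6352 and 6207 CPM in the lower-depth libraries and 7211, 7556, 8442 and 7806 in the higher-depth ones. Miat was 197, 206, 201 and 191 CPM against 274, 262, 270.4 and 296. Both RNAs were lower in all 4 lower-depth libraries, without overlap, by 0.47 (SE 0.07) and 0.67 (SE 0.05) on the log2 scale. Lack of overlap was common over all nuclei: of 24312 genes, 9882 lay above in the lower-depth set and 3807 below. Of the 7 RNAs it held for 2 above and 3 below. Rian (237 ± 32.8 against 305 ± 9.5 CPM) and Mirg (104 ± 13.4 against 128 ± 7.0) were lower by 0.57 and 0.51, with the Mirg values of the sets overlapping. TMM factors over all nuclei were higher in the lower-depth set by 0.20 on the log2 scale, which enlarges these 4 differences. Snhg11 was 5211, 4242, 4362 and 5102 CPM against 3404, 3255, 4086 and 3836. The Snhg11 sets did not overlap, but the difference of 0.18 (SE 0.09) missed the threshold with TMM (edgeR adjusted p = 0.118). Neat1 overlapped between sets (96.5 ± 9.5 against 82.1 ± 32.0 CPM), with its lowest value, 35.4 CPM, in TBI 2, the library with the smallest oligodendrocyte and astrocyte shares. In all, 5 of the 7 RNAs passed over all nuclei, 1 higher and 4 lower, where 58.5% of the 24312 genes tested passed (31.5% higher and 27.1% lower). Totals alone shift the median of all genes from 0.05 to 0.24 and the calls from 7651 higher and 6579 lower to 10058 and 3765, and 2 of the RNAs were then called higher and 4 lower.

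Within cell classes the same contrast called 31 of the 64 class-gene pairs of these RNAs, 17 higher and 14 lower in the lower-depth set. Of all 86555 pairs tested, 31.1% were called, 17.3% higher and 13.8% lower. With total UMIs alone as scale, 28 pairs of these RNAs were called, 16 higher and 12 lower, and none of the differences named here turned direction. That scaling moved the whole table from 14981 higher and 11940 lower to 17903 and 8073. The pairs of these RNAs whose 8 values did not overlap between sets were 15 above and 6 below, against 20.1% and 10% of all pairs. These shares differed by class. In excitatory neurons 8120 of 20411 genes lay above and 2904 below, and in inhibitory neurons 3069 and 1263 of 12997. In mural cells the counts were 49 and 80 of 1435. DESeq2 called 22 of the 64 pairs, and 17.5% of all pairs. Without high-UMI nuclei (more than 3 times the median UMIs for the class in that library, 824 nuclei in all), 35 of 58 pairs were called, 14 higher and 21 lower, against 31.9% of all pairs.

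**Figure D3:**
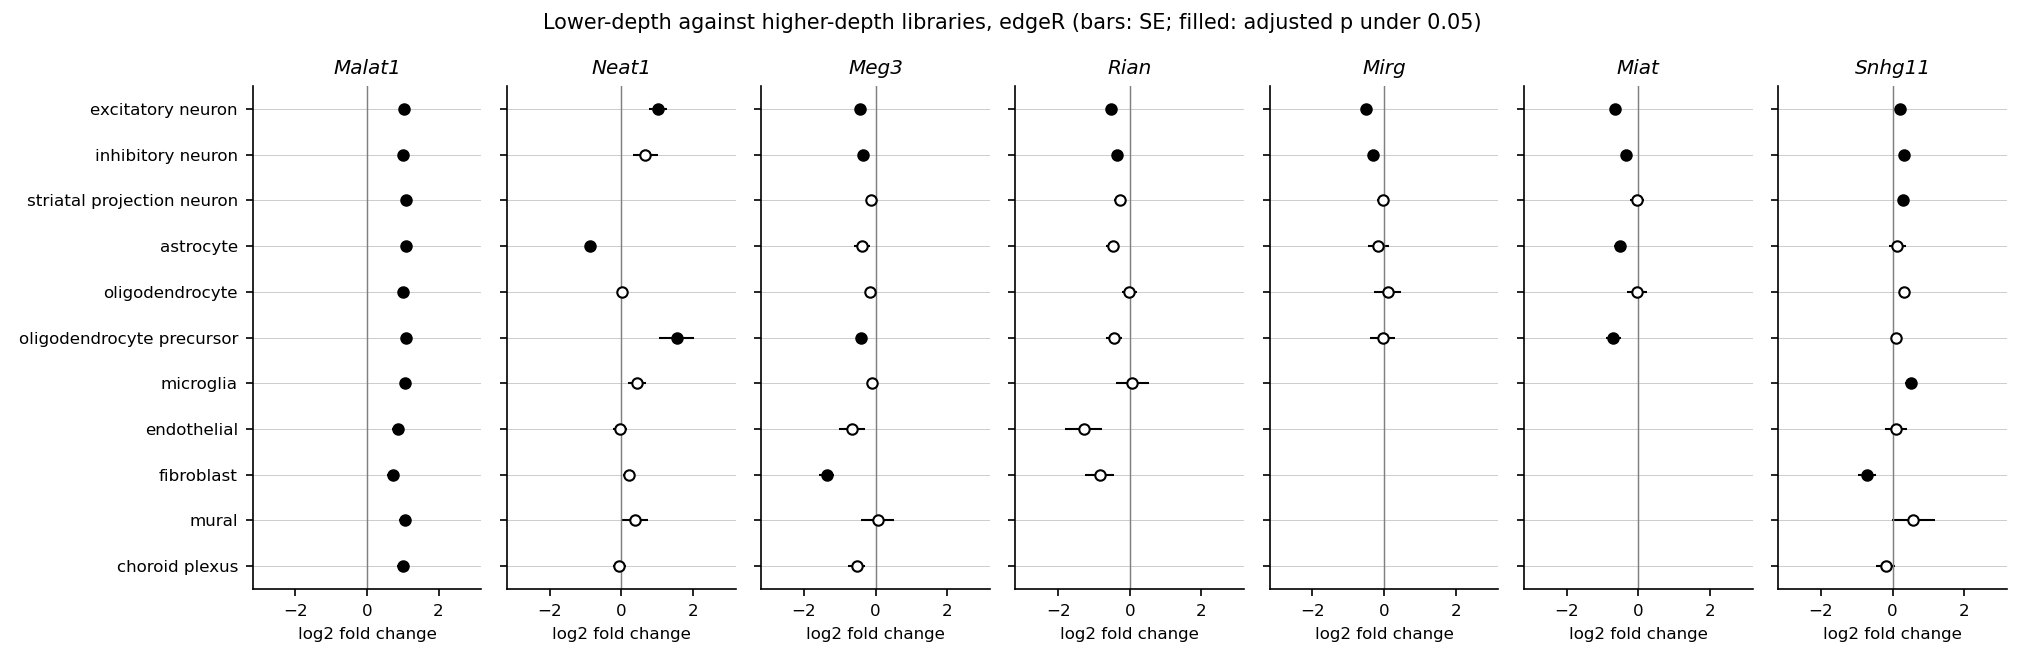
Difference between lower-depth and higher-depth libraries for each RNA and class, as edgeR log2 fold change (positive, higher in lower-depth libraries), with bars for the SE and filled points for adjusted p under 0.05. Malat1 is filled and positive in all 11 classes, and Meg3 and Miat are negative in neurons.

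Malat1 was higher in the lower-depth set in 11 of 11 classes, by 0.73 to 1.08 on the log2 scale (median 1.03), and its 8 values did not overlap between sets in any class. In oligodendrocyte precursors Malat1 was 61579.6, 50953, 57073 and 58355 CPM against 27438, 22808, 29955 and 25094, a difference of 1.08 (SE 0.06, edgeR adjusted p = 5.9e-13). In inhibitory neurons it was 59365, 47259.8, 59629 and 66365 CPM against 26890.3, 24528, 28281 and 25189, a difference of 1.01 (SE 0.07, edgeR adjusted p = 1.6e-10). All lower-depth values lay above all higher-depth values in both classes. In microglia the difference was 1.07 (SE 0.12, edgeR adjusted p = 1.6e-10). The smallest was in fibroblasts, at 0.73 (SE 0.16, edgeR adjusted p = 0.0029). Other genes differed by more: Malat1 ranked 2990 of 20411 genes by this fold change in excitatory neurons and 609 of 7190 in oligodendrocyte precursors.

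Malat1 UMIs per nucleus were also higher in the lower-depth libraries, in nuclei with fewer UMIs in all. An excitatory nucleus held on average 470.9, 430.7, 591.8 and 534.4 Malat1 UMIs in the lower-depth libraries and 335, 309, 290.3 and 266 in the higher-depth ones. The ratio of the set means was 1.69 for Malat1 and 0.679 for all other UMIs. The exact permutation p for Malat1 was 0.0286, the smallest that 4 against 4 libraries allow, and 0.0828 after adjustment over 84 tests, so it misses the threshold. Across the 11 classes the ratio was 1.25 to 1.76 for Malat1 and 0.619 to 0.896 for all other UMIs, and the Malat1 values did not overlap between sets in 7 of them. Meg3 UMIs per excitatory nucleus went the other way, 46.7 ± 4.7 against 76.0 ± 6.4, and Miat 1.82 ± 0.21 against 3.43 ± 0.41. Snhg11 UMIs overlapped between sets, 33.5 ± 3.8 against 35.01 ± 2.1 (exact permutation p = 0.657).

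**Figure D4:**
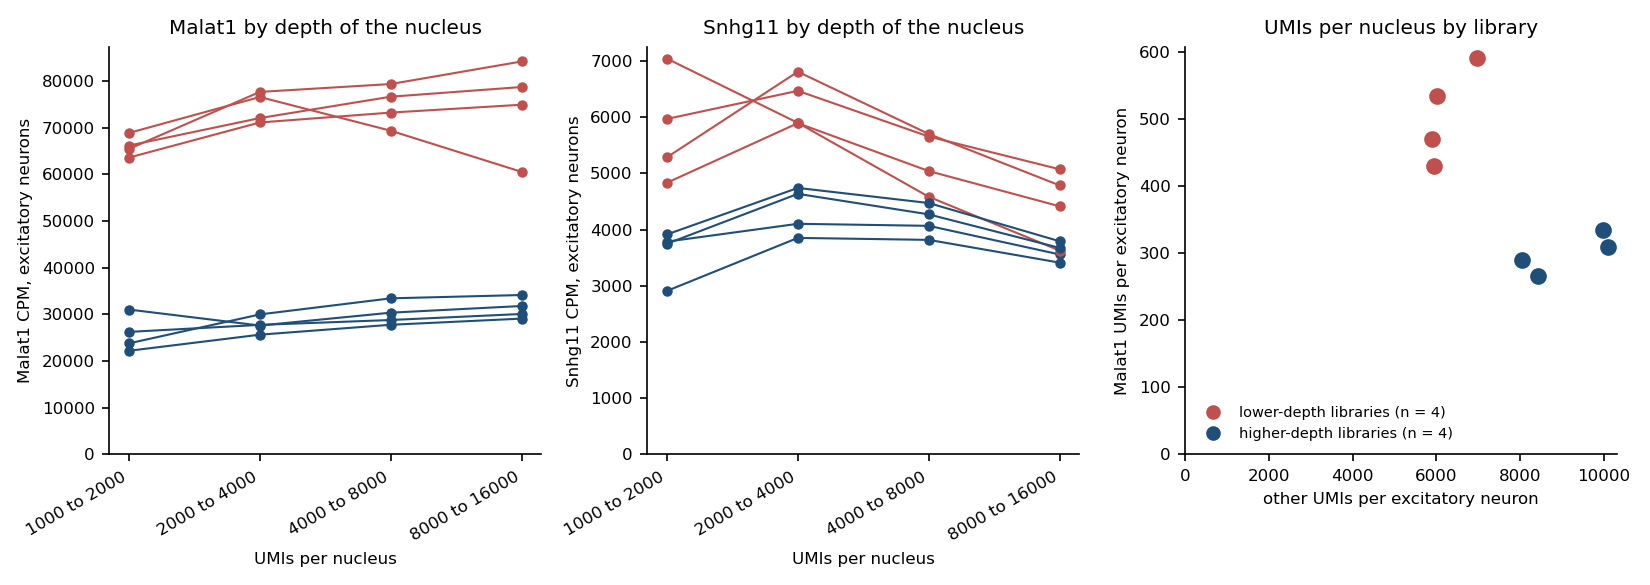
Malat1 and Snhg11 in excitatory neurons by UMIs per nucleus, in CPM per library and bin from 1000 to 2000 up to 8000 to 16000 UMIs, and Malat1 UMIs against other UMIs per nucleus (red, lower-depth; blue, higher-depth). In each bin the red libraries lie above the blue ones for Malat1.

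Excitatory nuclei were then compared at matched depth. Among excitatory nuclei with 1000 to 2000, 2000 to 4000, 4000 to 8000 and 8000 to 16000 UMIs, Malat1 CPM was 2.56, 2.68, 2.48 and 2.38 times as high in the lower-depth set. Snhg11 gave ratios of 1.61, 1.45, 1.26 and 1.24, and Miat 0.78, 0.77, 0.74 and 0.74. Those of Meg3 were 0.84, 0.93, 0.90 and 0.89, of Rian 0.92, 0.73, 0.79 and 0.82, and of Mirg 0.54, 0.82, 0.79 and 0.83. Neat1 changed direction between bins, with 0.22, 1.94, 1.40 and 2.28. Each Malat1 bin reached the smallest exact permutation p, 0.0286, which became 0.0571 after adjustment over 28 tests. Mean Malat1 CPM in the first and the last bin was 66013 and 74576 in the lower-depth set and 25815 and 31276 in the higher-depth set. Mitochondrial and ribosomal protein shares differed between the sets too (0.423% to 0.622% against 0.164% to 0.209% for the latter), and their part in the Malat1 difference was not tested.

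In excitatory neurons the Dlk1-Dio3 RNAs were all lower in the lower-depth set: Meg3 by 0.43 (SE 0.04), Rian by 0.52 (SE 0.08) and Mirg by 0.49 (SE 0.08) on the log2 scale. TMM factors in this class were higher in the lower-depth set by 0.21 on the log2 scale, which enlarges these differences. Meg3 was 7081, 6649, 6984 and 6748 CPM against 7703, 7812, 8189 and 8149.9, without overlap. Rian (246 ± 36.8 against 303 ± 21.1 CPM) and Mirg (99.6 ± 16.01 against 119.9 ± 5.4) overlapped between sets. In inhibitory neurons Meg3 was 8972, 8234, 8866 and 8293 CPM against 9392, 9943, 9948 and 10521, again without overlap. The 3 RNAs were lower there by 0.34, 0.36 and 0.29, and the calls of Rian and Mirg there were lost with totals alone (−0.22 and −0.16). The call of Mirg also ended with DESeq2, with thinned sums, and without either control, either BCAS or either BCAS+TBI library. Meg3 also passed in oligodendrocyte precursors (−0.40) and fibroblasts. The precursor call ended under 5 of 18 alternatives, among them without TBI 1 (−0.24), without TBI 2 (−0.27) and with the top Scrublet scores removed (−0.15). In fibroblasts it was 306, 459, 493 and 207 CPM against 822, 1930.0, 1008 and 467, and its difference of −1.36 (SE 0.21) shrank to −0.63 without high-UMI nuclei.

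Miat was lower in the lower-depth set in 4 of the 6 classes where it was tested. In excitatory neurons it was 267, 266, 278 and 258 CPM against 362, 352, 340.3 and 381, without overlap, a difference of −0.64 (SE 0.05, edgeR adjusted p = 9.1e-06). The TMM factors, higher by 0.21 in the lower-depth set of this class, enlarge this difference. It was also lower in inhibitory neurons (−0.35), astrocytes (−0.52) and oligodendrocyte precursors (−0.69). The inhibitory call was lost with totals alone (−0.22) and without BCAS 2. The astrocyte call was lost with DESeq2 and without either TBI or either BCAS+TBI library, and the precursor call with DESeq2, with the top Scrublet scores removed and without BCAS+TBI 2.

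Snhg11 was higher in the lower-depth set in neurons, as Malat1 was. In excitatory neurons it was 5417, 4314, 4658 and 5334 CPM against 3567, 3381, 3828 and 3931, without overlap, a difference of 0.21 (SE 0.05, edgeR adjusted p = 0.0151) that was 0.42 with totals alone. That call ended without control 1 (0.12) or control 2 (0.14) and without either BCAS+TBI library. In inhibitory neurons it was 7295, 5933, 7149 and 7369 CPM against 4863, 4433, 5376 and 5489, without overlap, a difference of 0.33 (SE 0.06) that was called under all 18 alternatives. Snhg11 was called higher by 0.30 in striatal neurons, but 12 of 18 alternatives ended that call, among them leaving out either control library (0.14 each) or either BCAS+TBI library. It was called lower by 0.71 in fibroblasts, which 9 of 18 alternatives ended, among them leaving out high-UMI nuclei (−0.33), TBI 1 or TBI 2 (−0.48 and −0.47) or either BCAS+TBI library. In microglia Snhg11 was called higher by 0.51, but without high-UMI nuclei it was called lower, by 0.57, and the call also ended without either TBI or either BCAS+TBI library.

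Neat1 differed by cell type. In astrocytes it was 296, 341, 389 and 314 CPM against 696, 582, 561 and 617, lower without overlap by 0.88 (SE 0.12, edgeR adjusted p = 7.4e-05). In oligodendrocytes, where it was highest, it was 898, 912, 912 and 866 against 1024, 776, 774 and 906 CPM, which overlapped (0.03, edgeR adjusted p = 0.886). In excitatory neurons Neat1 was 33.2, 32.2, 26.4 and 27.2 against 12.9, 22.4, 4.33 and 15.96 CPM, a difference of 1.03 (SE 0.25, edgeR adjusted p = 0.0091). That call ended without high-UMI nuclei (0.32, edgeR adjusted p = 0.35) and with DESeq2, and the value was 0.63 without TBI 1 and −0.21 with classes from clusters. High-UMI nuclei held 4.6% to 68.3% of the Neat1 UMIs of excitatory nuclei, depending on the library. The 11 oligodendrocyte markers, none at 0, summed in these excitatory nuclei to 484 to 605 CPM in the lower-depth libraries. In the higher-depth libraries the sum was 153 to 393 CPM. These are gate markers too, whose level the gate limits in excitatory nuclei, and their part in the Neat1 difference was not tested. The call in oligodendrocyte precursors (1.55, SE 0.49) rests on 2.89 to 46.9 CPM per library and turned to −0.09 with classes from clusters. It also ended with DESeq2 and without control 1, control 2, TBI 1 or either BCAS+TBI library, and the value was 2.57 without BCAS 1.

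Other genes were set beside these RNAs in 3 lists. Of the other long noncoding RNAs, 86 of 219 class-gene pairs were called in the depth contrast (39.3%, against 31.1% of all pairs), 50 higher and 36 lower (median 0.10, against −0.003 for all pairs). The small nucleolar RNA host Snhg8 was higher in lower-depth inhibitory (1.59) and excitatory neurons (1.13), while Snhg14 was lower in inhibitory (−0.56) and Lncpint in excitatory neurons (−0.75). Over all nuclei the hosts Snhg3 (0.99) and Gas5 (0.59) were higher too. Of genes for paraspeckle and speckle proteins, 39 of 180 pairs were called (21.7%, below the 31.1% of all pairs), 23 higher and 16 lower (median 0.08). In inhibitory neurons Sfpq, a core paraspeckle protein, was lower by 0.67, and the speckle protein gene Son was higher by 0.62, as was Srsf7, for a splicing factor, by 0.75. Of protein-coding genes around Dlk1-Dio3, 15 of 55 pairs were called (27.3%, also below that share), 4 higher and 11 lower (median −0.16). In excitatory neurons Rtl1, an imprinted gene of the domain, was higher by 1.18 and Degs2 by 1.27, while Ppp2r5c (−0.48) and Evl (−0.46) were lower. None of the list genes named here turned direction when scaled by totals.

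Barcodes set aside for over 5% mitochondrial UMIs (207 to 1356 per library) gave a comparison outside the kept nuclei. Malat1 took 37698 CPM there on average and 50811 in kept nuclei, lower in 8 of 8 libraries, by 0.38 ± 0.18 on the log2 scale. Choosing barcodes by their mitochondrial share lowers the share left for other RNAs, and with totals without mitochondrial UMIs the difference was −0.21 ± 0.18, lower in 7 of 8 libraries. Meg3 (−1.64), Rian (−1.31), Mirg (−1.69), Miat (−1.65) and Snhg11 (−1.46) were lower by more, each in 8 of 8 libraries. Neat1 alone was higher, 175 against 89.3 CPM, by 1.01 ± 0.50 in 8 of 8 libraries. With totals without mitochondrial UMIs Neat1 was higher by 1.18 and the other 5 lower by 1.14 (Rian) to 1.53 (Mirg). On totals of all UMIs, all 7 reached the smallest p of the exact sign-flip permutation test over 8 libraries, 0.00781. Neither cell types nor depth were matched in this comparison. The median UMIs were 1556.5 to 2200 in barcodes set aside and 3522.5 to 6819.5 in kept nuclei, lower in 8 of 8 libraries.

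The study's own question, what TBI, BCAS and both together change, was asked with 4 contrasts: TBI averaged over BCAS, BCAS averaged over TBI, their interaction (the TBI difference in BCAS mice minus that in mice without BCAS), and BCAS+TBI against control. These contrasts share libraries. Over all nuclei, none of the 7 RNAs was called in any contrast by edgeR or DESeq2. Each group holds 1 library of each depth set, so Malat1 was 70761 and 31880 CPM in control, 62329 and 28330 in BCAS, 72899 and 32901 in TBI, and 29312 and 78076 in BCAS+TBI. The groups overlapped fully, and the TBI difference of Malat1 was 0.14 with an SE of 0.74 (edgeR). With the library set as a further term it was 0.12 with an SE of 0.07, and that of BCAS −0.10 (SE 0.07). Neat1 gave the largest TBI value, −0.41 (SE 0.28), with TBI 2 at 35.4 CPM and the other libraries at 83.0 to 105. No gene of the 24312 was called by edgeR in any of these contrasts, with 55 to 73 at an unadjusted p under 0.05, and DESeq2 called 1 gene (0.00411%), the predicted gene Gm12166, in the BCAS contrast.

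Within classes, edgeR called none of the 64 pairs of these RNAs in any of the 4 contrasts. Over all 86555 pairs it called 3 for TBI (0.00347%) and 0 for the others. The 3 were Tenm2 (−2.21), Lsamp (−2.18) and Ctnna2 (−2.02), genes of neuronal adhesion, all lower with TBI in choroid plexus. The pairs nearest to a call were Snhg11 and Meg3 in choroid plexus. Meg3 there was 1410.1 and 1016 CPM in control, 513 and 1436 in BCAS, 225 and 373 in TBI, and 277 and 114 in BCAS+TBI. All 4 libraries with TBI were below all 4 without, by 2.19 (SE 0.33, edgeR adjusted p = 0.0631). Snhg11 was 1033 and 688 CPM in control, 499 and 563 in BCAS, 83.7 and 199 in TBI, and 196 and 38.1 in BCAS+TBI, again without overlap, by 2.39 (SE 0.35, edgeR adjusted p = 0.0598). Within each depth set the TBI difference kept its sign, −2.40 and −1.91 for Meg3 and −3.64 and −1.65 for Snhg11. How many of all genes separate by TBI without overlap, in this class or others, is not given here.

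With the library set as a further term, both RNAs were called in choroid plexus, at −2.22 (SE 0.24, edgeR adjusted p = 2.1e-05) and −2.39 (SE 0.27, edgeR adjusted p = 3.2e-05), as was BCAS+TBI against control (−2.71 and −2.86). DESeq2 called the same 4 differences, at −2.20 and −2.42 for TBI and at −2.67 and −2.91 for BCAS+TBI against control, where it called 0.015% and 0.00462% of all pairs. For BCAS and the interaction it called none of these RNAs. These values rest on few nuclei: the 4 libraries without TBI held 2, 1, 2 and 1 high-UMI choroid plexus nuclei, and the 4 with TBI held 0. Those nuclei carried 67.7% to 83.8% of the Meg3 and 62.6% to 70.9% of the Snhg11 UMIs of their class. Without them, Meg3 was 415.7 and 382.5 CPM in control and 101.1 and 432.8 in BCAS. The TBI differences were then −0.51 and −1.03, and no pair of any gene was called. The 7 excitatory markers summed in choroid plexus nuclei to 90.6 to 145 CPM without TBI and 58.0 to 116 with TBI, with 1 to 4 of them at 0. These are gate markers, and the gate limits their level in other classes. The sums therefore cannot gauge neuronal RNA in choroid plexus. The synaptic RNA Snap25 there was 203 and 120 CPM in control, 125 and 200 in BCAS, 58.0 and 109 in TBI, and 89.7 and 38.1 in BCAS+TBI. Snap25 was thus also lower in all 4 libraries with TBI, without overlap, while Syt1 overlapped (416 to 760 CPM without TBI and 303 to 528 with TBI). The part of these neuronal RNAs in the Meg3 and Snhg11 values was not tested.

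**Figure D5:**
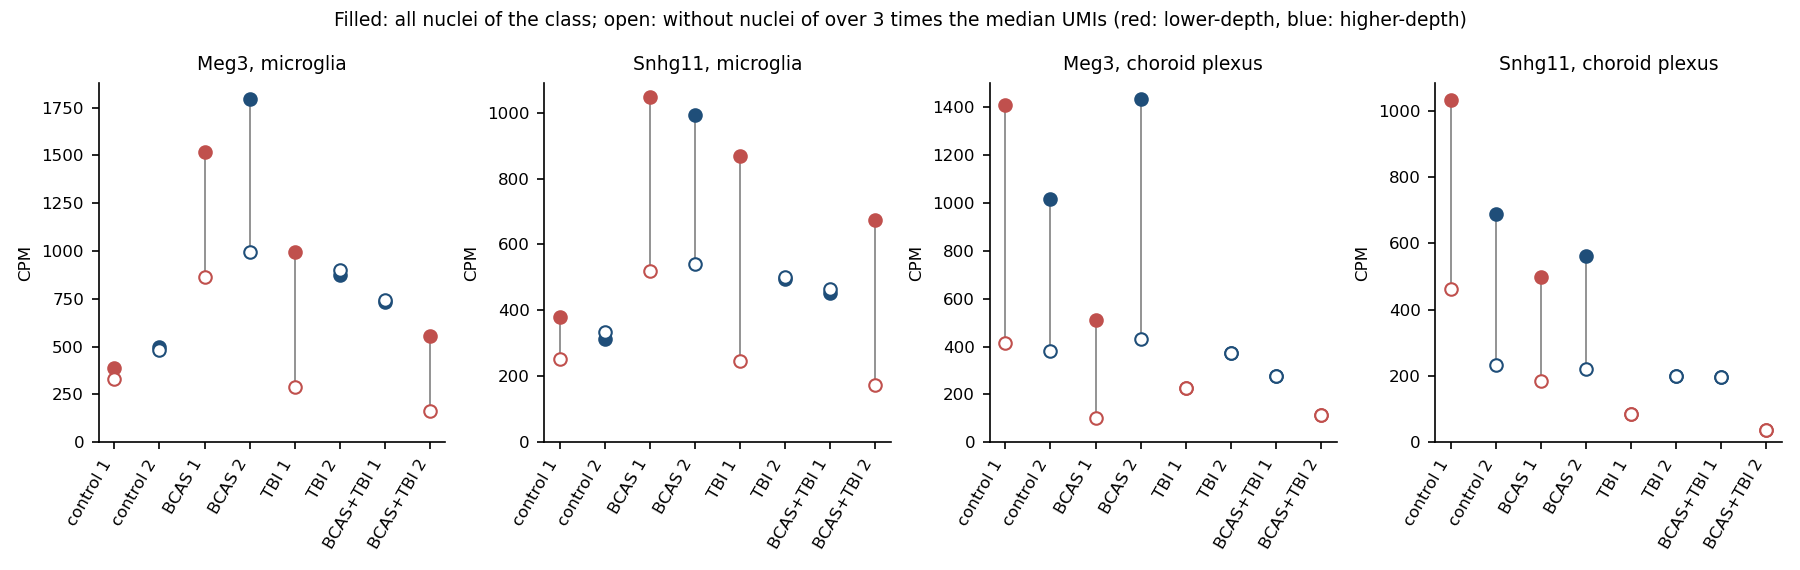
Meg3 and Snhg11 in microglia and choroid plexus by group and library, in CPM, from all nuclei of the class (filled) and without high-UMI nuclei (open). In choroid plexus the filled points of control and BCAS fall when those nuclei are left out, while those of the TBI groups do not move.

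In microglia Meg3 and Snhg11 gave the smallest p-values of the interaction. Meg3 was 388 and 497 CPM in control, 1519 and 1797 in BCAS, 994 and 874 in TBI, and 731 and 555 in BCAS+TBI. Both BCAS libraries were the highest and both control libraries the lowest. The interaction was −2.47 (SE 0.44, edgeR adjusted p = 0.990), and −2.80 and −2.11 within the sets. Snhg11 was 380.3 and 312 CPM in control, 1046 and 992 in BCAS, 868 and 496 in TBI, and 452 and 675 in BCAS+TBI, an interaction of −1.86 (SE 0.52). With the library set as a further term both were called, at −2.49 (SE 0.32, edgeR adjusted p = 7.0e-07) and −1.88 (SE 0.33, edgeR adjusted p = 0.0020). Without high-UMI nuclei the Meg3 interaction was −1.54, and no pair was called. Meg3 was then 331.5 and 482.7 CPM in control, 865.4 and 994.2 in BCAS, 289.5 and 899.5 in TBI, and 744.9 and 163.3 in BCAS+TBI, where TBI and BCAS overlapped. The nuclei left out (1 to 9 per library) carried from 1.1% to 78.4% of microglial Meg3 UMIs. Excitatory markers, whose level the gate limits here too, summed in microglia to 67.5 to 302 CPM. The synaptic RNA Syt1, not a gate marker, was 275 and 452 CPM in control, 827 and 951 in BCAS, 371 and 615 in TBI and 435 and 375 in BCAS+TBI. Syt1 thus was also highest in both BCAS libraries, and its part was not tested.

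The other pairs among the 3 smallest p-values of a contrast did not pass. Miat in striatal projection neurons gave −0.67 (SE 0.21) for TBI and −1.02 (SE 0.31) for BCAS+TBI against control. For BCAS, Meg3 and Snhg11 in microglia gave 0.69 (SE 0.22) and 0.65 (SE 0.26), and Snhg11 in oligodendrocyte precursors 0.58 (SE 0.26). Rian in endothelial cells had an interaction of −3.08 (SE 1.26) that rests on 0 to 36 UMIs per library.

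With the library set as a term, the TBI contrast called 4 pairs of these RNAs, where 0.163% of all pairs were called. Beside both choroid plexus pairs these were Meg3 in oligodendrocytes (−0.68, SE 0.13, edgeR adjusted p = 0.0294) and in oligodendrocyte precursors (−0.52, SE 0.11, edgeR adjusted p = 0.0355). Meg3 in oligodendrocytes was 1457 and 1083 CPM in control, 1408 and 1749 in BCAS, 967 and 998 in TBI, and 954 and 601 in BCAS+TBI, lower in all 4 libraries with TBI. Without high-UMI nuclei the oligodendrocyte value was 0.12, and with classes from clusters the precursor value was 0.005. The interaction called 2 pairs (0.0439% of all), BCAS+TBI against control 2 (0.0508%) and BCAS 0 (0.022%). In the 3 lists edgeR called no pair in a group contrast, and with the library set as a term only Sox2ot in microglia was, lower with TBI by 1.18 (SE 0.23, edgeR adjusted p = 0.0030).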

How the data were processed

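The authors deposited UMI counts per gene and barcode, which the file headers credit to Cell Ranger 7.0.0, and the submitters' processing notes name Seurat and the builds GRCm38 and mm10. The deposited counts were used unchanged, and how strand, introns and doublets were treated upstream is not given in the sources used here. Barcodes below 500 UMIs or 300 genes, or above 5% mitochondrial UMIs, were set aside. A nucleus entered a class with at least 3 distinct markers of it (2 for excitatory neurons) whose summed share was at least 3 times the library mean and 3 times that of the next class. Of 107 markers 106 were found. Barcodes shared between pairs of libraries reached at most 0.321%.

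Counts were summed per library and class and tested with edgeR 4.0.16 (R 4.3.3) in quasi-likelihood fits with TMM, filterByExpr at a minimum count of 10 and Benjamini-Hochberg adjustment over all class-gene pairs of a contrast, threshold 0.05, two-sided. Group contrasts used the 4 groups of 2 libraries, and the depth contrast used group and library set. DESeq2 1.42.0 on the same sums, other scalings, filters, nuclei and classes (Leiden clusters in scanpy 1.11.5), and leaving out each library were alternatives. The fits with totals alone, the UMIs per nucleus, the bins of depth and the limits of the gate were chosen after seeing the data. Doublets were not removed in the main analysis: Scrublet's automatic threshold marked 0% to 0.0525% of barcodes in 7 libraries and 12.8% in control 1, so the 6% with the highest score were left out as an alternative. On data simulated from these libraries, 2-fold changes in excitatory neurons (20411 genes) were recovered for 13% of changed genes in the TBI contrast and for 82% in the depth contrast, and 4-fold changes for 72% and 99%. With 100 genes changed at each fold, 9 unchanged genes were falsely called in the TBI contrast and 27 in the depth contrast. The 7 RNAs, the gene lists and the contrasts were chosen with earlier results of these data known. All 7 RNAs were named in the comparisons of classes, library sets and barcodes, except that UMIs per nucleus were given for only some. Named with them were the 3 class pairs of smallest p per contrast, up to 3 genes most alike each RNA and up to 4 list genes per contrast. Other genes called in a group contrast were named after their values were seen. Likeness was Pearson's r of log2(CPM + 10) over class means, among genes of at least 50 CPM in a class. The ranking left out the 7 RNAs themselves, predicted genes and mitochondrial genes. Depth was 28118725 to 56135192 UMIs per library. UMI counts carry counting error beside the spread between libraries. Ependymal nuclei (158) were too few per library to test.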

Additional observations from a re-analysis of the deposited data

Results flagged for a closer look

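Outlying libraries were looked for within each depth set, where the gap of the extreme library to its nearest neighbour, over the range of the 4, was compared with Dixon's 95% critical value. Of 142 groups of 4 checked, 6 passed, where chance gives about 1 in 20. In inhibitory neurons of the lower-depth set, Rian was 407 CPM in TBI 1 (494 UMIs) and 307 to 320 in the others, and Snhg11 was 5933 CPM in BCAS 1 and 7149 to 7369 in the others. Meg3 in oligodendrocytes of the higher-depth set was 1749 CPM in BCAS 2 and 954 to 1083 in the others. Miat in oligodendrocyte precursors of the higher-depth set was 135 CPM in control 2 (56 UMIs) and 100 to 101 in the others. Rian in microglia of the lower-depth set was 89.8 CPM in TBI 1 (15 UMIs) and 37.5 to 42.2 in the others. Snhg11 in mural cells of the lower-depth set was 1861 CPM in control 1 (88 UMIs) and 222 to 454 in the others.

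The TBI difference was tested against BCAS status in microglia. With the library set as a term, the interaction was −2.49 for Meg3 and −1.88 for Snhg11 on the log2 scale, as given with the group contrasts above. Without that term edgeR called neither, whether high-UMI nuclei were kept or left out.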

How the results depend on the processing

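Of the alternatives to the counts of calls and the class and barcode comparisons, 350 stayed within 1.5 times the count reported (for barcodes, on the same side of the threshold) and 55 did not. For the 36 single differences called, 573 alternatives kept the call, 66 lost it and 3 turned direction, and for the 14 not called, 247 left it so, 26 gained a call and 5 turned direction. The 2 libraries of a group limit the group contrasts, as their spread follows depth. Same-numbered libraries deviated together in 3 of the 6 pairs of groups (correlations 0.68 to 0.81 over 24312 genes) and opposite in the 3 with BCAS+TBI (−0.77 to −0.86), so the numbers do not pair the libraries, and the fit with the replicate block called 0 pairs in every group contrast. The library set block equals the crossed pairing. For TBI, class-gene pairs called (3) became 13 with DESeq2, 134 with no filter on low counts, 5 with at least 1000 UMIs per nucleus or thinned sums, 141 with the library set block, and 0 without high-UMI nuclei, with the top 6% of Scrublet scores removed, with cluster classes or with totals alone. Leaving out 1 library gave 0 to 26: 0 without TBI 1 or BCAS+TBI 2, and 26 without BCAS 1 or TBI 2. Pairs of the 7 RNAs called for TBI (0) became 2 with DESeq2, no filter or thinned sums, and 4 with the library set block, and were 0 to 2 leaving out 1 library. For BCAS, pairs called (0) became 49 with no filter and 19 with the library set block, and 0 to 1 leaving out 1 library, and DESeq2 called 1 gene over all nuclei. For the interaction, pairs called (0) became 110 with no filter and 38 with the library set block, and 0 to 4 leaving out 1 library, and those of the 7 RNAs 2 and 2. For BCAS+TBI against control, pairs called (0) became 4 with DESeq2, 67 with no filter and 44 with the library set block, and 0 to 5 leaving out 1 library, and those of the 7 RNAs 2 in each of these fits and 0 to 1. In the depth contrast, DESeq2 called 15145 pairs in place of 26921. Leaving out 1 library gave 20044 to 23370 pairs, 25 to 34 of the 7 RNAs, 11111 to 14099 genes over all nuclei and 5 to 7 of the 7 RNAs there. Neighbouring classes that differ (18) became 42 with cluster classes and 0 leaving out 1 library, where 7 libraries allow no exact p below 0.0156. The Malat1 difference of failed barcodes (−0.38) was −0.51 at a 10% limit, −0.21 with totals without mitochondrial UMIs and −0.41 to −0.34 leaving out 1 library. With cluster classes, Miat in striatal projection neurons turned to 0.084 for TBI and 0.0030 for BCAS+TBI, Snhg11 in oligodendrocyte precursors to −0.39 for BCAS, Neat1 to −0.21 in excitatory neurons and −0.088 in oligodendrocyte precursors in the depth contrast, and Meg3 in oligodendrocyte precursors to 0.0049 for TBI. Without high-UMI nuclei, Snhg11 in microglia turned to −0.57 in the depth contrast and Meg3 in oligodendrocytes to 0.12 for TBI. The causes were not tested.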
